A study of Mus musculus with 6 samples.

Results

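Transcripts of 10 genes whose products modify, fold and cross-link collagen were followed in primary mouse embryonic fibroblasts (MEF): the lysyl oxidases Lox, Loxl1, Loxl2, Loxl3 and Loxl4, the lysyl hydroxylases Plod1 and Plod2, the prolyl 4-hydroxylase subunits P4ha1 and P4ha2, and the collagen chaperone Serpinh1. They were picked as enzymes and a chaperone of collagen maturation, with earlier results of these data known. They were matched by gene symbol, and all 10 were found among the 18872 genes of the table. RNA of the cultures was sequenced in 6 libraries, of which 3 bear the label SARAF-KO and 3 the label SARAF-WT, to ask how loss of SARAF, a negative regulator of store-operated calcium entry, alters gene expression. All cultures came from minced trunks of E14.5 embryos on the B6 background, were grown without treatment, and were harvested at 75% confluency. According to the study's methods and mouse scheme, SARAF-KO animals carry floxed Saraf alleles (SARAF fl/fl) and a whole-body PGK-Cre transgene, and SARAF-WT animals are SARAF fl/fl without Cre, so the floxed alleles are common to both. The labels give the genotypes of the libraries only as SARAF KO and wild type.

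Collagen chains are modified before they leave the endoplasmic reticulum. Prolyl 4-hydroxylases, built from catalytic alpha subunits and the beta subunit P4hb, hydroxylate prolines and thereby stabilise the collagen helix, and lysyl hydroxylases add hydroxyl groups to lysines, which fixes the kind of cross-link that can form later. Serpinh1 (HSP47) binds the folded procollagen and escorts it toward the Golgi. Outside the cell, lysyl oxidases deaminate lysines and hydroxylysines of collagen and elastin to reactive aldehydes, from which the covalent cross-links of the matrix arise. Fibroblasts are the main producers of fibrillar collagen in connective tissue.

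The values are normalized counts, that is, reads per gene divided by a size factor of the library. Behind them were 32799080 to 37979662 reads per library under the SARAF-KO label and 24595137 to 32228588 under the SARAF-WT label. Saraf itself stood at 4631, 4476 and 4384 normalized counts under the SARAF-KO label and at 3268, 3409 and 3306 under the SARAF-WT label, so it was higher under the SARAF-KO label (difference of 0.43 on the log2 scale, limma adjusted p = 4.2e-12). Saraf lies on chromosome 8, where 45.1% of the other genes tested were higher and 14.6% lower. Of the 10 tested genes nearest to it, 5 were higher and 0 lower, with a median log2 difference of 0.14. The part of this regional difference in the Saraf value was not tested. A gene count sums all exons, while the scheme removes a single one, so it cannot by itself check the labels. The Saraf level goes against the direction of a lost transcript. Directions below are therefore those of the labels as given. Among fibroblast markers, 5 of 8 were lower and 2 higher, with summed levels of 236928 to 242595 against 278154 to 279160 normalized counts (SARAF-KO label first). Of the defining markers of other lineages, Col2a1, Sp7, Myog, Epcam, Cdh1, Pecam1, Cdh5, Ptprc and Sox10 stayed below the minimum mean of 10 normalized counts. Other markers of those lineages, skeletal muscle excepted, were expressed and are given with the marker lists at the end. The embryo of origin is not stated for any library, so p-values measure the spread between these libraries, which may be technical.

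Every one of the 10 genes was well expressed, between 1275 and 40019 normalized counts over all libraries, and all passed the minimum. Under the SARAF-KO label, compared with the SARAF-WT label, 6 of the 10 were lower (Lox, Loxl1, Loxl2, Loxl3, Plod2 and Serpinh1), 2 were higher (Loxl4 and P4ha2), and 2 did not pass the test (Plod1 and P4ha1), at a limma adjusted p under 0.05 over all 13986 genes tested. The background is high, since 56.2% of all genes tested passed, 28.0% lower and 28.2% higher. The median log2 difference was -0.18 over the 10 genes and -0.0014 over all genes tested. Groups did not overlap for 9 of the 10 genes, against 61.4% of all genes. In bulk RNA, fewer cells of a type and less RNA per cell cannot be told apart.

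**Figure D1:**
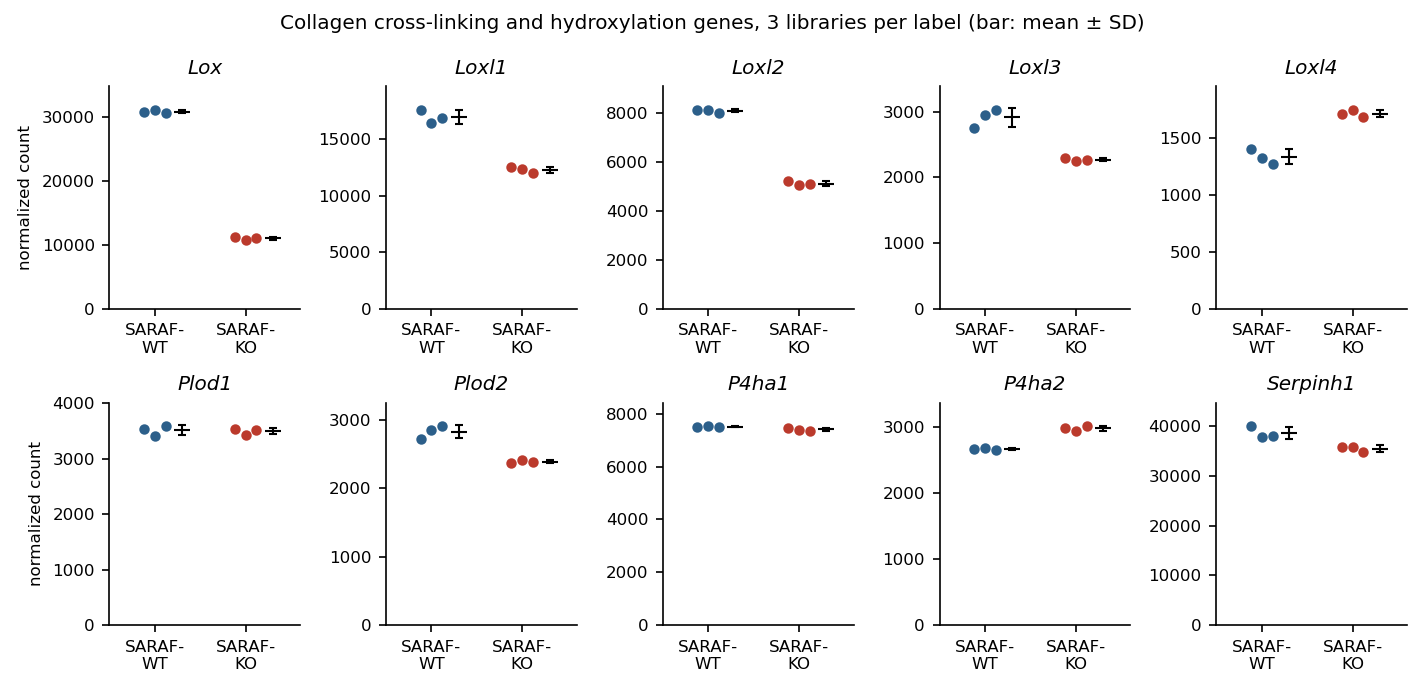
Normalized counts of the 10 genes in each library, one panel per gene with its own axis of normalized counts. Each point is 1 library, 3 under each label, and the bar beside them gives the group mean and its SD. The groups are apart in 9 of the 10 panels, with Lox the most, and cross in that of Plod1.

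The lysyl oxidases held the largest difference of the set. Lox, the founding enzyme of the family, was measured at 11221, 10782 and 11011 normalized counts under the SARAF-KO label and at 30825, 31185 and 30687 under the SARAF-WT label. The groups lay far apart, and the spread within each was small beside the gap. The means of 11005 ± 220 and 30899 ± 257 (SD, n = 3 each) correspond to a level 2.81-fold higher under the SARAF-WT label, a log2 difference of -1.49 (SE 0.02, 95% interval -1.54 to -1.44, limma adjusted p = 4.3e-24). Only 2.17% of the genes tested differed by as much in either direction. Lox lies on chromosome 18 (GRCm38, 52516067 to 52529867, minus strand).

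Loxl1, the paralog needed for elastic fibre upkeep, stood at 12535, 12335 and 12020 normalized counts under the SARAF-KO label and at 17599, 16396 and 16877 under the SARAF-WT label. All SARAF-WT values exceeded all SARAF-KO values, and the SARAF-KO mean was 27.5% lower (12297 ± 259 against 16957 ± 605, SD, n = 3; log2 -0.46, SE 0.03, 95% interval -0.52 to -0.41, limma adjusted p = 2.0e-13). Loxl2, which cross-links collagen IV of basement membranes among other substrates, was counted at 5211, 5029 and 5064 against 8101, 8110 and 7995. Again no library crossed to the other group, and the log2 difference was -0.66 (SE 0.03, 95% interval -0.71 to -0.61, limma adjusted p = 6.2e-17). Loxl1 lies on chromosome 9 (58287738 to 58313186, minus strand) and Loxl2 on chromosome 14 (69609068 to 69695834, plus strand).

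Loxl3 and Loxl4 are scavenger receptor domain paralogs like Loxl2, and they moved in opposite directions. Loxl3 was lower, at 2297, 2247 and 2258 normalized counts under the SARAF-KO label against 2755, 2956 and 3028 (log2 -0.36, SE 0.03, 95% interval -0.43 to -0.29, limma adjusted p = 2.3e-09). Loxl4 was the one lysyl oxidase that was higher, at 1709, 1748 and 1683 against 1405, 1326 and 1275 (log2 0.36, SE 0.04, 95% interval 0.28 to 0.44, limma adjusted p = 2.4e-08). In both genes the groups were fully separated. The exons of Loxl3 share 535 bases, 11.6% of their length, with Htra2 on the opposite strand, and the library kit keeps no strand, so reads in the shared bases cannot be assigned. Htra2, a mitochondrial protease, was higher under the SARAF-KO label (log2 0.14, limma adjusted p = 0.0017), opposite to Loxl3. Loxl3 lies on chromosome 6 (83034173 to 83052562, plus strand) and Loxl4 on chromosome 19 (42593982 to 42612813, minus strand).

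The make-up of the family differed as well. Scaled to kilobases of annotated exon, the 5 lysyl oxidases summed to 7876 ± 127 under the SARAF-KO label and 14053 ± 145 under the SARAF-WT label (SD, n = 3), a 1.78-fold higher sum in the latter. Lox made up 29.2 ± 0.41% of the KO sum and 46.0 ± 0.70% of the WT sum, and Loxl1 47.4 ± 0.45% and 36.6 ± 0.95%. Lox thus led Loxl1 in every SARAF-WT library and trailed it in every SARAF-KO library. Loxl2 took 12.0% and 10.6%, Loxl3 6.25% and 4.51%, and Loxl4 5.16% and 2.25% of the same sums. Annotated exon length need not be that of the isoforms in use, so shares between genes are approximate.

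**Figure D2:**
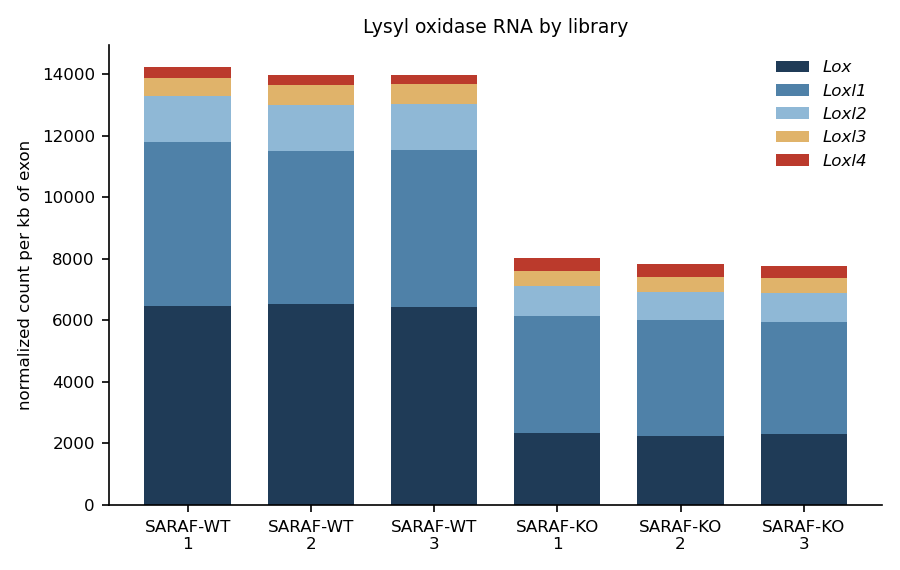
Stacked levels of the 5 lysyl oxidases in each library, in normalized counts per kilobase of exon. The stacks average 7876 under the SARAF-KO label and 14053 under the SARAF-WT label, and Lox fills 29.2% of the former and 46.0% of the latter.

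Ratios of counts within a library do not depend on how libraries are scaled. The ratio of Lox to Loxl1 averaged 0.895 under the SARAF-KO label and 1.82 under the SARAF-WT label, a log2 difference of -1.03, and that of Loxl4 to Lox averaged 0.156 and 0.0432, a difference of 1.85. Loxl2 to Lox and Loxl3 to Lox differed by 0.83 and 1.13. The ratio of Lox to Col1a1, a collagen I chain and substrate, was 0.182 against 0.388 (log2 difference -1.09). Across all 8 ratios computed, groups did not overlap and the exact two-sided permutation test gave p = 0.1, the smallest that 3 against 3 libraries allow, and 0.1 after adjustment over the 8.

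Loxl2 lies in a stretch of chromosome 14 where most genes were lower. Of the 454 other genes tested on that chromosome, 63.0% were lower and 11.0% higher under the SARAF-KO label, with a median log2 difference of -0.27. Among the 10 tested genes nearest to Loxl2, all within 545 kb, 9 were lower and 0 higher, with differences from -0.66 to -0.23 and a median of -0.44. Loxl2 was the second lowest of its surroundings, after Egr3, a zinc finger transcription factor. Within 5 Mb on either side, 34 of 63 genes were lower and 9 higher, and 4 were lowered more than Loxl2. The part of the chromosome-wide difference in the Loxl2 value was not tested.

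**Figure D3:**
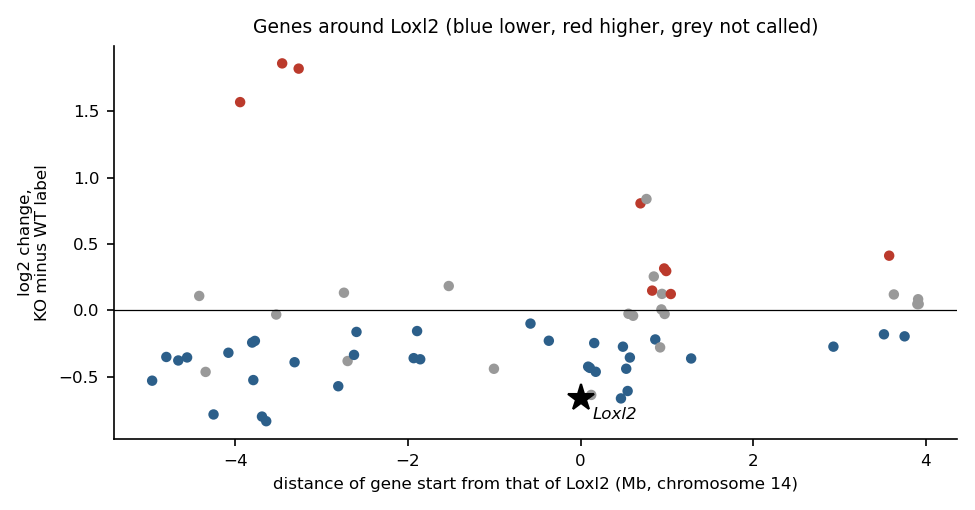
Log2 difference (SARAF-KO label minus SARAF-WT label) of the tested genes within 5 Mb of Loxl2, against the distance between gene starts in Mb, 1 point per gene, coloured where the adjusted p is under 0.05, with Loxl2 as a star. Of 63 neighbours 34 are lower, with a median of -0.23, and Loxl2 sits at -0.66.

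The surroundings of Lox were mixed. Of the other genes tested on chromosome 18, 30.0% were lower and 29.5% higher, and among the 10 nearest genes 4 were lower and 3 higher, with Lox the lowest. Loxl4 lies on chromosome 19, where 39.2% of the other genes were higher and 16.5% lower. P4ha1 lies on chromosome 10, where 44.6% were higher and 17.0% lower. On chromosome 7, which holds Serpinh1, 19.3% were higher and 34.2% lower. Among the 10 nearest genes, 2 were higher and 2 lower around Loxl4, 5 and 2 around P4ha1, and 3 and 4 around Serpinh1. The part of these chromosome-wide and local differences in the values of these genes was not tested.

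The lysyl hydroxylases differed from each other. Plod1 showed no difference that passed the test, with 3535, 3439 and 3520 normalized counts under the SARAF-KO label and 3539, 3414 and 3587 under the SARAF-WT label. The groups overlapped, and the log2 difference of -0.01 had a 95% interval of -0.07 to 0.05 (limma adjusted p = 0.87). Plod2, which hydroxylates lysines in the telopeptides of collagen, was lower at 2374, 2410 and 2389 against 2725, 2856 and 2907 (log2 -0.24, SE 0.03, 95% interval -0.31 to -0.18, limma adjusted p = 4.7e-07). All SARAF-KO values lay below all SARAF-WT values, and the ratio of Plod2 to Plod1 averaged 0.683 against 0.805. Exons of Plod2 share 346 bases with a transcript model on the opposite strand, as those of Loxl2 share 301 bases with an antisense gene. Plod3, the third lysyl hydroxylase, which also glycosylates hydroxylysine, was higher (log2 0.11, limma adjusted p = 0.00043) and made up 71.8% and 68.4% of the per-kilobase sum of the 3 paralogs. Plod1 lies on chromosome 4 (147909753 to 147936767, minus strand) and Plod2 on chromosome 9 (92542223 to 92608428, plus strand).

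The prolyl 4-hydroxylase subunits P4ha1 and P4ha2 differed little between the groups. P4ha1, the main catalytic subunit of most cells, stood at 7478, 7380 and 7362 normalized counts under the SARAF-KO label and at 7513, 7525 and 7508 under the SARAF-WT label. These values did not overlap, but they were close, and the log2 difference of -0.02 (95% interval -0.07 to 0.03) did not pass the test (limma adjusted p = 0.48). P4ha2, the second isoform of the subunit, was higher at 2978, 2939 and 3004 against 2664, 2684 and 2652, without overlap (log2 0.16, SE 0.03, 95% interval 0.10 to 0.22, limma adjusted p = 6.0e-05). The ratio of P4ha2 to P4ha1 averaged 0.401 and 0.355. P4ha3, the least expressed paralog per kilobase, fell to 248 ± 10.8 from 570 ± 26.9 (log2 -1.20, limma adjusted p = 1.0e-13) and took 3.36% and 7.46% of the summed level. P4hb, the shared beta subunit, was lower (log2 -0.08, limma adjusted p = 0.0035). P4ha1 lies on chromosome 10 (59323296 to 59373304, plus strand) and P4ha2 on chromosome 11 (54100095 to 54131665, plus strand).

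Both hydroxylase families and Serpinh1 are known targets of stress programmes, hypoxia for the former and heat shock for the latter, so the upstream bases of the genes with an entry in the RefSeq promoter table (build GRCm38.p6) were searched. Of the 10 genes, 5 had one (Loxl4, P4ha1, P4ha2, Plod1 and Serpinh1). In the 250 bases before the annotated start, the core ACGTG of the hypoxia response element was found, on either strand, in P4ha1, P4ha2 and Serpinh1. It occurs in 16.6% of all 32851 windows of that length, and a match is a description of letters only. The heat shock half-site pair TTCNNGAA was found in P4ha2, at 7.17% of windows, and its partner order GAANNTTC in none of the 5, at 6.69%. The 3 windows with a match are shown 5′ to 3′ on the strand of the gene, with the matched letters in capitals. None overlaps an annotated exon, and that of P4ha2 lies inside the longer GENCODE gene. Coordinates are chr10:59323046-59323295 (plus strand), chr11:54100674-54100923 (plus strand) and chr7:99353240-99353489 (minus strand).
P4ha1: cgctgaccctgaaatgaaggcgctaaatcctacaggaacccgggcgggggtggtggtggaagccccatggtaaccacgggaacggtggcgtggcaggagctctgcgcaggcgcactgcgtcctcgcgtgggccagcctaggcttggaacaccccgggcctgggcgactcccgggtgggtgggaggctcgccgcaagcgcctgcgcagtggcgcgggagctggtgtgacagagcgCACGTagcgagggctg
P4ha2: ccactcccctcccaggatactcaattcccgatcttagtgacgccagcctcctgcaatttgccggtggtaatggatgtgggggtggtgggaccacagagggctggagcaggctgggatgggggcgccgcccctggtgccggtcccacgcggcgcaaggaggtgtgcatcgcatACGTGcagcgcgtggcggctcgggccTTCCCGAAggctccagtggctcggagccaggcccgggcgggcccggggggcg
Serpinh1: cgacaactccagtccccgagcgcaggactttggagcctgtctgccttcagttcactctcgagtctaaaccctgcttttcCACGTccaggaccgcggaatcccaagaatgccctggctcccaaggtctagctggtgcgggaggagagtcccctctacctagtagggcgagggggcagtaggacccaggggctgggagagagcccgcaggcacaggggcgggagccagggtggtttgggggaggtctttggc

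In P4ha1 the core begins 16 bases before the start, in P4ha2 78 bases before it, and in Serpinh1 171 bases before it. Of these 3 genes P4ha1 did not pass the test, P4ha2 was higher and Serpinh1 was lower.

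Serpinh1 was the most abundant of the 10 genes per kilobase of exon. It stood at 35911, 35899 and 34754 normalized counts under the SARAF-KO label and at 40019, 37823 and 38146 under the SARAF-WT label. No values overlapped, although the spread among the SARAF-WT libraries was wide next to the gap. The means were 35521 ± 665 and 38662 ± 1185 (SD, n = 3), a fall of 0.12 on the log2 scale (SE 0.03, 95% interval -0.17 to -0.07, limma adjusted p = 0.00024). Col1a1, the alpha1 chain of collagen I that it chaperones, differed by more (log2 -0.40), and the ratio of Serpinh1 to Col1a1 averaged 0.588 under the SARAF-KO label and 0.485 under the SARAF-WT label. Serpinh1 lies on chromosome 7 (99345376 to 99353239, minus strand).

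**Figure D4:**
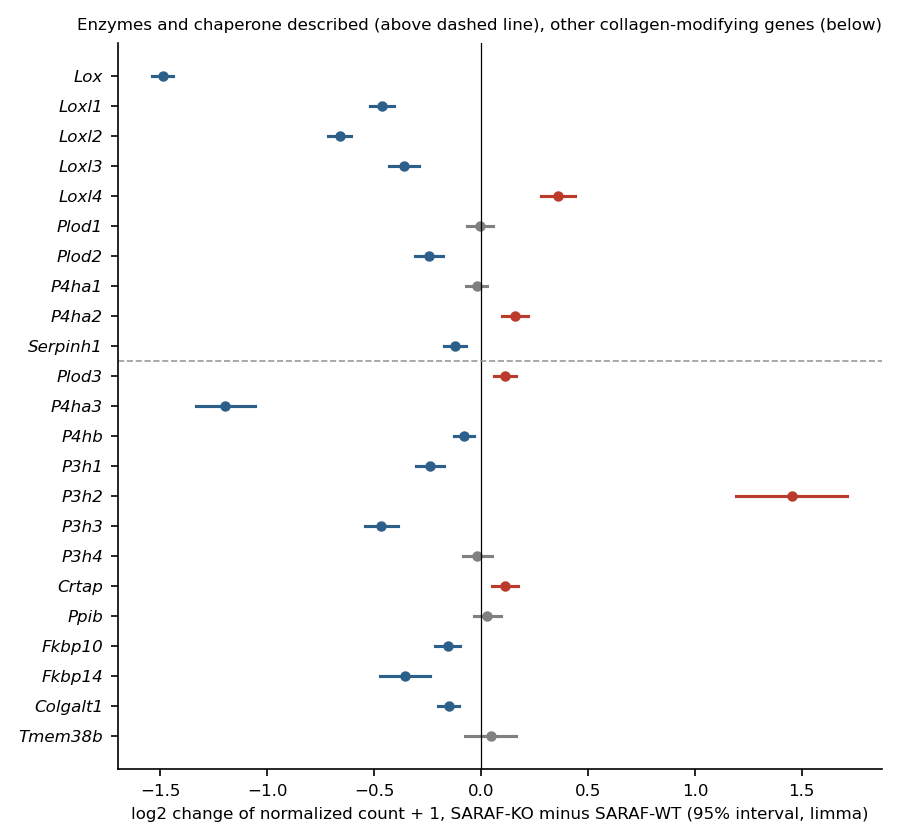
Log2 difference (SARAF-KO label minus SARAF-WT label) with its 95% interval from limma for the 10 genes, above the dashed line, and for 13 other genes of collagen hydroxylation, folding and glycosylation, below it. Among the 10, Lox is lowest at -1.49, Loxl4 is highest at 0.36, and the intervals of Plod1 and P4ha1 hold 0.

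Per kilobase of exon, the order of levels under the SARAF-WT label was Serpinh1, Lox, Loxl1, P4ha1, Loxl2, Loxl3, Plod2, Plod1, P4ha2 and Loxl4, and Plod2 and Plod1 were the only neighbours whose library values overlapped. Under the SARAF-KO label it was Serpinh1, Loxl1, Lox, P4ha1, Loxl2, Plod1, Loxl3, P4ha2, Plod2 and Loxl4, with no overlap between neighbours. P4ha1 kept the fourth place, at 1800 ± 15.1 and 1827 ± 2.16 normalized counts per kilobase.

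The genes of the surrounding pathway were read out of the same fit. Of 13 other genes of collagen hydroxylation, folding and glycosylation that were tested, 7 were lower and 3 higher (median log2 difference -0.08). Apart from P4ha3, the smallest p-values belonged to the prolyl 3-hydroxylase genes, with P3h3 at -0.47 and P3h1 at -0.24, both lower, and P3h2 at 1.45, higher (157 ± 12.0 against 56.9 ± 4.81 normalized counts). Of 13 genes of procollagen trimming and secretion, 8 were lower and 5 higher (median -0.22). Adamts2, which removes the N-propeptide, stood at 2032 ± 21.9 against 4930 ± 174 (log2 -1.28, limma adjusted p = 5.5e-21). Creb3l1, a transcription factor of the secretory route, was lower by -0.93 on the log2 scale, Sparc, a collagen-binding matrix protein, by -0.31, and Sec24d, a coat component of the vesicles that export procollagen, by -0.29.

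The substrates were mostly lower. Of 9 fibrillar collagen and elastin genes tested, 7 were lower and 1 higher (median -0.35). Eln, which encodes elastin, stood at 63.9 ± 3.57 against 276 ± 14.6 normalized counts (log2 -2.09, limma adjusted p = 1.3e-14). Col5a2 (-0.49) and Col1a2 (-0.41) were lower too, while Col5a3, a minor chain of collagen V, was higher at 1072 ± 49.3 against 392 ± 3.28 (log2 1.45, limma adjusted p = 1.3e-17). Lists of TGF-beta response genes, hypoxia-inducible genes and heat shock genes were read because members are known to respond to these programmes in various cells. Of 10 TGF-beta response genes, 8 were lower and 2 higher (median -0.28), among them Tgfb1i1, an adaptor of focal adhesions (-0.71), Fn1, fibronectin (-0.47), and Cyr61, a matricellular protein (-0.43), all lower. Postn, a matricellular protein, lay farthest out at -3.55, with low levels of 2.69 ± 2.56 against 32.8 ± 1.67 normalized counts.

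Of 15 hypoxia-inducible genes, 10 were higher and 2 lower (median 0.13), led by the glycolytic genes Pgk1 (0.38) and Ldha (0.36), the oxygen sensor Egln1 (0.38) and Ndrg1 (0.27). Of 10 heat shock genes, 6 were higher and none lower (median 0.16), with Hsph1 at 0.42, Hspd1 at 0.30, Hspa8 at 0.25 and Hsp90aa1 at 0.20. Hspa1a (-0.15), Hspa1b (0.027), Dnajb1 (0.014) and Hspb1 (-0.068) did not pass. Over these 6 lists, 59 of 70 tested genes passed. With 56.2% of all genes passing, such counts are descriptions of the lists and single out none of them.

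**Figure D5:**
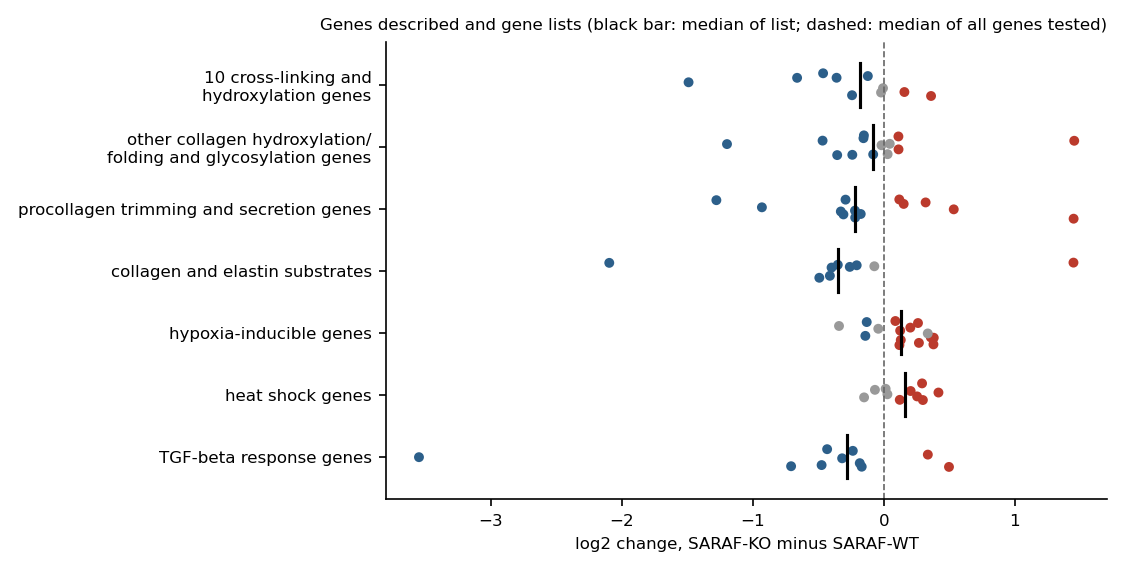
Log2 difference of the tested genes among the 10 genes and 6 lists around them (SARAF-KO label minus SARAF-WT label), 1 point per gene, with the median of each list as a black bar and that of all genes tested as a dashed line. Medians run from -0.35 for the collagen and elastin substrates to 0.16 for the heat shock genes.

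Marker genes for smooth muscle or myofibroblasts were also read. Of 7, 5 were lower and 0 higher under the SARAF-KO label (median log2 difference -1.40), with summed levels of 4815 to 5553 normalized counts against 13772 to 17507. Acta2, smooth muscle actin, stood at 3077 ± 181 and 8174 ± 1274. Of the mesothelial markers, Msln and Wt1 were higher, with the list's sum at 4723 to 5123 against 1577 to 1647 and Upk3b and Upk1b below the minimum. Of the endothelial markers, Kdr was lower and Tek higher (list sum 1256 to 1355 against 2086 to 2123). Of the epithelial ones Krt18 was lower (list sum 25.6 to 39.4 against 80.02 to 103.7). The chondrocyte markers Sox9 and Acan were lower (list sum 625 to 720 against 933 to 984). Alpl of the osteoblast list was lower too, while the sums of that list overlapped (1521 to 1569 against 1486 to 1603). Of 3 immune markers tested, Csf1r and Cd53 were higher and Cd68 did not pass (list sum 491 to 521 against 429 to 455). Of 2 neural crest and Schwann markers tested, 0 passed, and the sums of that list overlapped (108 to 127 against 100 to 131). No marker of skeletal muscle reached the minimum. The part of any of these lists in the members' values was not tested.

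The genes whose pattern over the 6 libraries was most like that of Lox, by Euclidean distance of centred log2 values, were Limch1 (0.080), Gm14420 (0.10), Ifit1 (0.12), Tenm3 (0.13) and Phactr1 (0.14). Limch1, an actomyosin regulator, stood at 276 ± 10.7 against 802 ± 10.4 normalized counts, and Tenm3, a teneurin adhesion receptor, at 1329 ± 15.2 against 3996 ± 64.4.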

How the data were processed

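RNA was sequenced from MEF cultures with TruSeq v2 libraries, which keep no strand. According to the methods and processing notes, the authors used TopHat 2.0.10 for mapping to GRCm38, HTSeq with Ensembl genes for counting and DESeq2 for normalization and testing. For HTSeq no settings were found. Each of the 18872 genes in the deposited table has, for every library, a signal value, namely its count over the size factor. The comparison columns of the authors (log2 fold change of wt over ko, its standard error, a Wald score, and the p-value before and after adjustment) were not used.

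The 10 members and all gene lists were chosen with earlier results of these data known. The test was limma 3.58.1 (R 4.3.3, trended variance) on log2(normalized count + 1). Genes needed a mean normalized count of 10 or more, which left 13986, over which p-values were adjusted (Benjamini-Hochberg, threshold 0.05). Fold changes are on that scale. Whole multiples of 1 read's worth made up 100% of the values (tolerance 1e-06), and edgeR 4.0.16 on the reads so recovered called 7926 of 14072 genes. DESeq2 1.42.0, limma-voom, other scalings, pseudocounts and minimum levels, and leaving out each library were the other alternatives. Fits were tested on simulated data. Beside the 10 genes, Saraf, up to 4 genes per list with the smallest p and the 5 genes nearest to Lox are named. Plod3, P4hb, Col1a1, Htra2, Egr3, Postn, the heat shock genes that did not pass and the expressed markers were named after their values were seen. Some genes of the lists are not reported here. Positions and exon lengths come from GENCODE M21 (GRCm38), which matched 18118 (96.0%) of the symbols. Within groups, chi-square per degree of freedom between libraries was 1.53 to 3.99, so none was treated as a copy. Between groups it was 39.3 to 47.2. These values cannot tell whether the libraries of a label came from separate embryos or cultures.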

Additional observations from a re-analysis of the deposited data

How the results depend on the processing

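All 8 members that passed the test kept their direction and passed under each of 17 alternatives (largest adjusted p 0.0050), and Plod1 and P4ha1 passed in 0 of them (smallest adjusted p 0.44). The sign of Plod1 turned, without passing, with upper quartile scaling (0.013 on the log2 scale), without SARAF-KO replicate 2 (0.0060) and without SARAF-WT replicate 3 (0.0089). Leaving out single libraries gave Plod1 a range of -0.027 to 0.0089. The number of genes called ran from 6646 (DESeq2) to 7994 (upper quartile scaling). Other scalings moved the median of all genes by at most 0.019 on the log2 scale. None of the 8 ratios reversed in its 8 alternatives.

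The replicate numbers gave no sign of pairing: deviations of same-numbered libraries correlated at -0.03, -0.01 and -0.05, and those of different-numbered ones at -0.03 to 0.06. With 3 libraries per group, such values cannot tell whether the libraries were prepared in pairs. With the replicate number as a block, 7801 genes and 8 members were called. The depth left no member near its limit, but 3 libraries per group cannot give an exact p under 0.1. The direction of every difference rests on labels that the Saraf level goes against but cannot by itself check.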
